A study of Mus musculus with 12 samples.

Results

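The vascular and muscle basement membrane was followed here through 10 genes, chosen by name as the rows of the count table for Col4a1, Col4a2, Lama2, Lama4, Lama5, Lamb1, Lamb2, Lamc1, Nid1 and Hspg2. They are 10 of the 18996 genes in the table, and all 10 passed the filter on low counts, as did 14765 genes overall. RNA was sequenced from mouse paraspinal tissue in 3 groups of 4 mice. The No operation group gave intact paraspinal soft tissue. The SHAM group gave soft and scar tissue after paraspinal soft tissue had been removed with the laminae left in place, and the Laminectomy group gave soft and scar tissue after the laminae had been excised as well. The study worked with BALB/c mice aged 5 to 7 weeks, of both sexes, and the labels name no genotype, drug, age or sex for these 12 mice. The labels give no day of sampling, and the study's supplement places the sequenced scar tissue at day 7 after surgery.

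A basement membrane is a thin sheet of matrix that underlies endothelium and epithelium and wraps muscle fibres, Schwann cells and fat cells. Laminins, each built from an alpha, a beta and a gamma chain, form one network on the cell surface, collagen IV forms another, and nidogens and perlecan join the networks. In skeletal muscle the Lama2 chain anchors the fibre to its sheath through dystroglycan and integrins, while the Lama4 and Lama5 chains are typical of blood vessels. The comparisons with No operation mice ask how the RNA for these parts differed in operated tissue, and the comparison of Laminectomy with SHAM mice asks what lamina excision added.

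Both surgical groups held less Lama2, Lama5 and Lamb2 RNA and more Col4a1 and Lamb1 RNA than No operation tissue. In SHAM tissue Col4a2, Lama4 and Nid1 rose too. Lamc1, the common gamma chain, was not called in any comparison. A gene was called where the quasi-likelihood test of edgeR, adjusted over all genes by the Benjamini-Hochberg method, gave a p under 0.05 and the log2 fold change was beyond 0.5 in either direction. Of the 10 genes, 5 were higher and 3 lower in SHAM mice, against 25.7% of all genes tested called higher and 25.1% called lower. In Laminectomy mice 2 were higher and 3 lower, against 24.2% and 24.4% of all genes. The 4 mice of the groups did not overlap for 6 of the 10 genes in the SHAM comparison and for 5 in the Laminectomy comparison, where the shares over all genes were 54.5% and 56%. The median log2 fold change of the 10 genes was 0.45 in SHAM and 0.26 in Laminectomy mice, beside -0.00 and 0.01 over all genes. Both comparisons use the same 4 No operation mice and are not independent. The balance of calls over all genes depended on the scaling: 50.6% of calls in SHAM and 49.8% in Laminectomy mice were higher with TMM, and 66.0% and 69.9% with library totals alone. With library totals, Lama5 was called in neither comparison, Hspg2 was called higher in both, and Col4a2, Lama4 and Nid1 were called higher in Laminectomy mice too.

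The tissue itself differed between the groups, and the counts of marker genes below stand beside 25.7% of all genes called higher and 25.1% lower in SHAM mice and 24.2% and 24.4% in Laminectomy mice. Summed over 10 muscle fibre genes, read counts scaled by library size and TMM factor (CPM) ran from 101104 to 143503 in No operation mice, from 2403 to 9603 in SHAM and from 3153 to 13833 in Laminectomy mice, and all 10 genes were called lower in both surgical groups. Summed over 10 endothelial genes the ranges were 878 to 1118, 654 to 899 and 601 to 927 CPM, with 3 of 10 called lower and 7 not called in each surgical group, and none at 0. The 10 fibroblast genes summed to 8925 to 28262, 58959 to 79553 and 55040 to 68196 CPM, with 7 of 10 called higher and 1 lower in each surgical group. The 9 macrophage genes summed to 885 to 2294, 5561 to 9985 and 3960 to 6339 CPM. The 8 adipocyte genes summed to 2893 to 4687, 290.0 to 2665 and 76.4 to 552 CPM, and the 10 pericyte and smooth muscle genes to 1352 to 1976, 848 to 1500 and 1314 to 1413 CPM. Of the pericyte and smooth muscle genes, 2 were called higher and 6 lower in SHAM mice, and 3 higher and 4 lower in Laminectomy mice. Schwann cell genes summed to 162 to 271, 109 to 342 and 101 to 862 CPM. The 8 genes of neurons and central glia summed to 38.4 to 106 CPM in No operation mice, nearly all of it Aqp4 (mean 69.8 CPM), a water channel that muscle fibres also carry, and to 0.856 to 1.87 CPM in SHAM mice. In Laminectomy mice they summed to 1.96, 240.1, 74.7 and 1.77 CPM, and Snap25, a neuronal gene, averaged 0.049 CPM in No operation and 21.7 CPM in Laminectomy mice. Leaving out Laminectomy replicate 2 or replicate 3 changed no Laminectomy call among the 10 genes. The 8 myogenic progenitor genes summed to 64.0 to 104 CPM in No operation, 5.11 to 2134 in SHAM and 1334 to 2142 CPM in Laminectomy mice, with 5 of 8 called higher in each surgical group and median log2 fold changes of 3.91 and 4.64. The 9 keratinocyte genes summed to 26.0 to 47.6, 17.6 to 149 and 13.2 to 20.3 CPM, and of 5 tested 3 were called higher and 1 lower in SHAM mice and 1 lower in Laminectomy mice. The part of these shifts in the results below was not tested, and in bulk tissue fewer cells of a type and less RNA per cell cannot be told apart. SHAM replicate 1 stood apart from its group. It held the myogenic progenitor sum of 5.11 CPM, where the other SHAM mice had 1233 to 2134, it held the keratinocyte sum of 149 CPM, and it had the lowest muscle fibre sum of all 12 mice. Without it, Lama5 was no longer called in SHAM tissue (log2 fold change -0.44) and the other 7 calls held. SHAM replicate 3 had the highest adipocyte sum of its group, 2665 CPM where the other SHAM mice had 290.0 to 690, and the highest pericyte and smooth muscle sum, 1500.1 CPM against 848 to 1108. It also had the highest value of its group for each of the 10 genes but Lamb1 and Nid1. Without it Col4a2 and Lama4 were no longer called in SHAM tissue. The part of these markers in those calls was not tested.

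**Figure D1:**
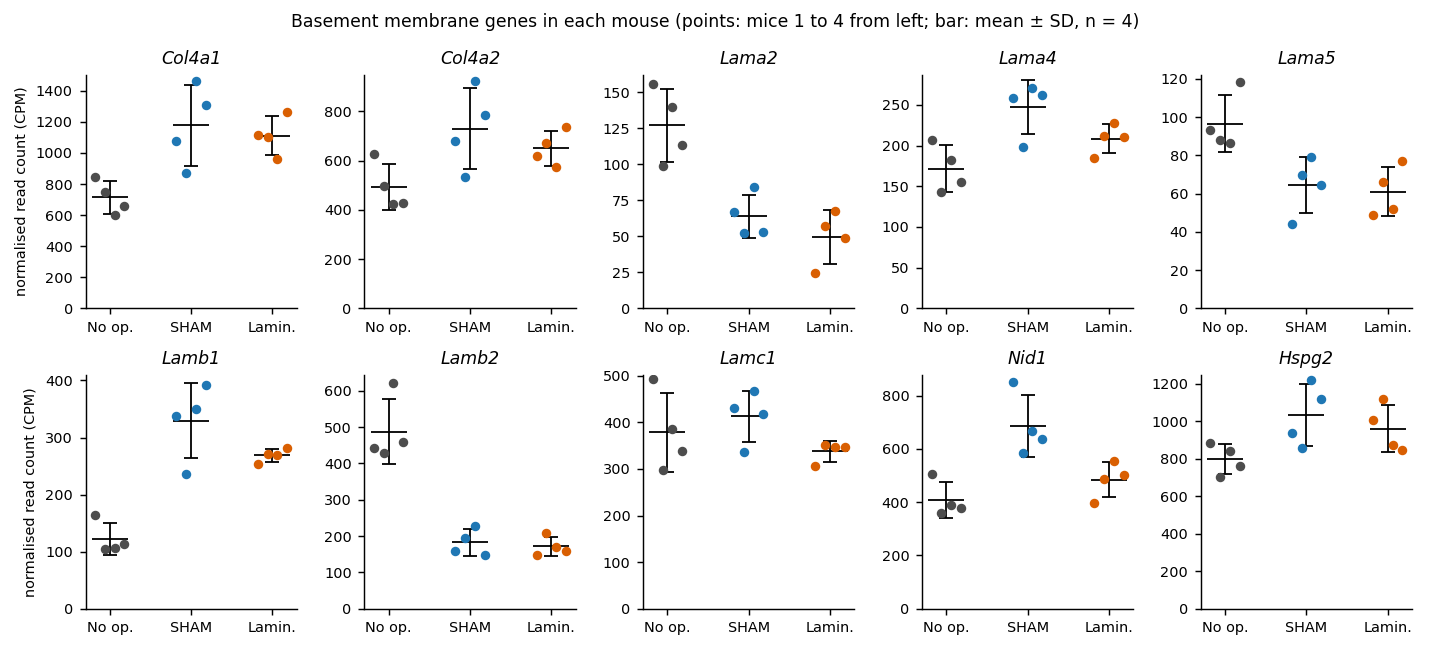
Normalised read counts in CPM (vertical axes, from 0) for the 10 genes in each of 12 mice by group, with points for mice and bars for mean ± SD, n = 4. Lamb1 ran from 104 to 164 CPM in No operation mice and from 237 to 391 in SHAM mice, and Lamb2 moved the other way.

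The collagen IV pair is shown first, because its members start head to head. Col4a1 (GRCm38 chr8:11198423-11312826, minus strand) and Col4a2 (chr8:11312805-11449287, plus strand) lie head to head and encode the chains that make up the common collagen IV protomer. Their RefSeq promoter windows, 250 bases before to 50 after each start, share a stretch of 78 bases (chr8:11312777-11312854, printed on the plus strand, with the GC box GGGCGG in capitals):
Col4a1 and Col4a2 shared stretch: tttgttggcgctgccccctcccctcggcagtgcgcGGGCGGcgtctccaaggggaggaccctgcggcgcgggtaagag
The gene models share 22 exon bases on opposite strands.

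Col4a1 had 847, 746, 601 and 661 CPM in No operation mice 1 to 4. It had 1076, 868, 1461 and 1305 CPM in SHAM mice. In Laminectomy mice it had 1114, 1102, 958 and 1266 CPM. Every operated mouse was above every No operation mouse. Col4a1 rose by a log2 fold change of 0.72 (SE 0.18) in SHAM mice, with an adjusted p of 0.00462 by edgeR, and by 0.64 (SE 0.18, adjusted p = 0.00974) in Laminectomy mice.

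Col4a2 had 626, 497, 422 and 430 CPM in No operation mice, in the same order. In SHAM mice it had 678, 532, 923 and 783 CPM. In Laminectomy mice it had 620.0, 672, 572 and 735 CPM. No operation replicate 1 lay above the lowest mouse of both surgical groups, so the groups overlapped. The SHAM difference was 0.56 on the log2 scale (adjusted p = 0.0201 by edgeR, called higher) and the Laminectomy difference was 0.40 (adjusted p = 0.0837, not called). The SHAM call was lost without No operation replicate 3 (log2 fold change 0.49), No operation replicate 4 (adjusted p = 0.0587) or SHAM replicate 3 (log2 fold change 0.43), and without No operation replicate 1 the Laminectomy difference of 0.53 was called.

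The ratio of Col4a1 to Col4a2 reads varied little. It was 1.35, 1.50, 1.42 and 1.54 in No operation mice, 1.59, 1.63, 1.58 and 1.67 in SHAM mice, and 1.80, 1.64, 1.68 and 1.72 in Laminectomy mice. The mean log2 ratio was higher by 0.15 in SHAM and by 0.23 in Laminectomy mice, without overlap. In a two-sided exact permutation test each gave p = 0.0286, the smallest that 4 against 4 mice allow, and 0.049 after Benjamini-Hochberg adjustment over 12 ratio comparisons. The SHAM call was lost without any 1 of the No operation or SHAM mice (adjusted permutation p 0.0571 to 0.098), and the Laminectomy call without any 1 of the No operation mice (0.0571). The exact permutation p before adjustment was 0.0286 without each No operation mouse, the smallest that 4 against 3 mice allow. It rose to 0.0571 in SHAM tissue without each SHAM mouse. Over the 12 mice Col4a2 was also the gene of all 14765 tested whose centred log2 pattern was most like that of Col4a1, with a root mean square difference of 0.11. The next 4 were Rgs2 at 0.17, Usp27x at 0.17, Stam2 at 0.18 and Zfp518b at 0.18.

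The laminin beta chains gave the largest differences in both directions. Their promoter windows are printed because these genes moved in opposite directions, with matches to CCAAT and GGGCGG, on either strand, in capitals. Lamb1 (GRCm38 chr12:31265234-31329644, plus strand) encodes a laminin beta chain. Lamb2 (chr9:108479736-108490530, plus strand) encodes the laminin beta chain of muscle synapses and arteries. The windows are chr12:31265043-31265342 and chr9:108479612-108479911:
Lamb1: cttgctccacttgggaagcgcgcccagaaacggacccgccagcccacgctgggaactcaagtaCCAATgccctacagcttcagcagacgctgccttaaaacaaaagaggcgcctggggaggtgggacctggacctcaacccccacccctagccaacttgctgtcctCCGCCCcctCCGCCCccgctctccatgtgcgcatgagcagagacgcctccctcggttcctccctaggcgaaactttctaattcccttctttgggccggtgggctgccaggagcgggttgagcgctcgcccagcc
Lamb2: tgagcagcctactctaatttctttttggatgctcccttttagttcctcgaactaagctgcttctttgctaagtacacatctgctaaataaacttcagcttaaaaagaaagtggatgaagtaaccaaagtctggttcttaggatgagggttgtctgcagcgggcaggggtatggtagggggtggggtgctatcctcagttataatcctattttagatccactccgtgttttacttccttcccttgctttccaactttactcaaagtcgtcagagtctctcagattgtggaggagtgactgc
The Lamb1 window held 1 CCAAT box and 2 GC boxes, and the Lamb2 window held neither. The windows are placed on RefSeq starts, which for Lama2, Lamb1, Lamb2, Nid1 and Hspg2 lie inside the GENCODE gene models and not at their ends.

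RefSeq windows were found for 8 of the 10 genes. G and C made up 74.0% of the Col4a1 window, 73.7% of Col4a2, 72.7% of Lama5, 70.3% of Hspg2, 64.7% of Nid1, 63.7% of Lamb1, 50.3% of Lama2 and 44.0% of Lamb2, beside a median of 52.7% over 32851 mouse windows. A GC box (GGGCGG, both strands) was in 7 of these 8 windows and in 35.7% of all windows. A CCAAT box (both strands) was in the windows of Col4a1, Col4a2, Lamb1 and Nid1 and in 37.4% of all. TATAAA and the E-box CAGCTG, searched on both strands, were in none of the 8 and in 13.6% and 16.3% of all windows.

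Lamb1 had 164, 104, 107 and 114 CPM in No operation mice. SHAM mice had 337, 237, 351 and 391 CPM, and Laminectomy mice had 254, 272, 269 and 281 CPM. No operated mouse overlapped a No operation mouse. Lamb1 rose by a log2 fold change of 1.43 (SE 0.179) in SHAM mice, an increase of 2.69-fold (adjusted p = 4.91e-05 by edgeR), and by 1.14 (SE 0.177, adjusted p = 0.000251) in Laminectomy mice.

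Lamb2 had 442, 429, 620.4 and 458 CPM in No operation mice. The values were 159, 193, 229 and 148 CPM in the SHAM group and 148, 209, 171 and 159.6 CPM after laminectomy. All 8 operated mice lay below the lowest No operation mouse. Lamb2 fell in SHAM mice to a log2 fold change of -1.42 (SE 0.178), with an adjusted p of 4.97e-05 by edgeR, and -1.50 (SE 0.178, adjusted p = 4.67e-05) in Laminectomy mice. The calls for Lamb1 and Lamb2 held in all 22 alternative analyses of each comparison.

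Per length of exon, Lamb1 made up 13.6% ± 3.73 (SD, n = 4) of the reads of these beta chains in No operation tissue, 52.4% ± 8.42 in SHAM and 49.1% ± 3.42 in Laminectomy tissue. The ratio of Lamb1 to Lamb2 reads was 0.372, 0.243, 0.172 and 0.248 in No operation mice, 2.12, 1.22, 1.53 and 2.64 in SHAM mice, and 1.71, 1.30, 1.57 and 1.76 in Laminectomy mice. Per exon length, Lamb2 made up 81.4% to 90.5% in No operation mice, and in operated mice it was above 50% in SHAM replicates 2 and 3 and Laminectomy replicates 2 and 3 and below 50% in the other 4. Exon length here merges the exons of all annotated transcripts, 9917 bases for Lamb1 and 6082 for Lamb2, and these shares depend on it. By read counts alone, Lamb1 was above Lamb2 in every operated mouse. The mean log2 ratio was higher by 2.85 in SHAM and by 2.66 in Laminectomy mice (two-sided exact permutation p = 0.0286 for each, 0.049 adjusted over 12 comparisons). No operated mouse overlapped a No operation mouse for either gene, and the genes moved in opposite directions. This p was therefore fixed at its smallest value and adds nothing to the calls of Lamb1 and Lamb2. Leaving out each mouse in turn kept these differences between 2.48 and 3.04. The exact permutation p was 0.0286 each time, the smallest that 4 against 3 mice allow, so it shows only that the groups stayed apart. The adjusted value was 0.0571 without any 1 of the No operation mice, or without SHAM replicate 2, 3 or 4 for SHAM, where fewer of the 12 comparisons reached the smallest p.

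**Figure D2:**
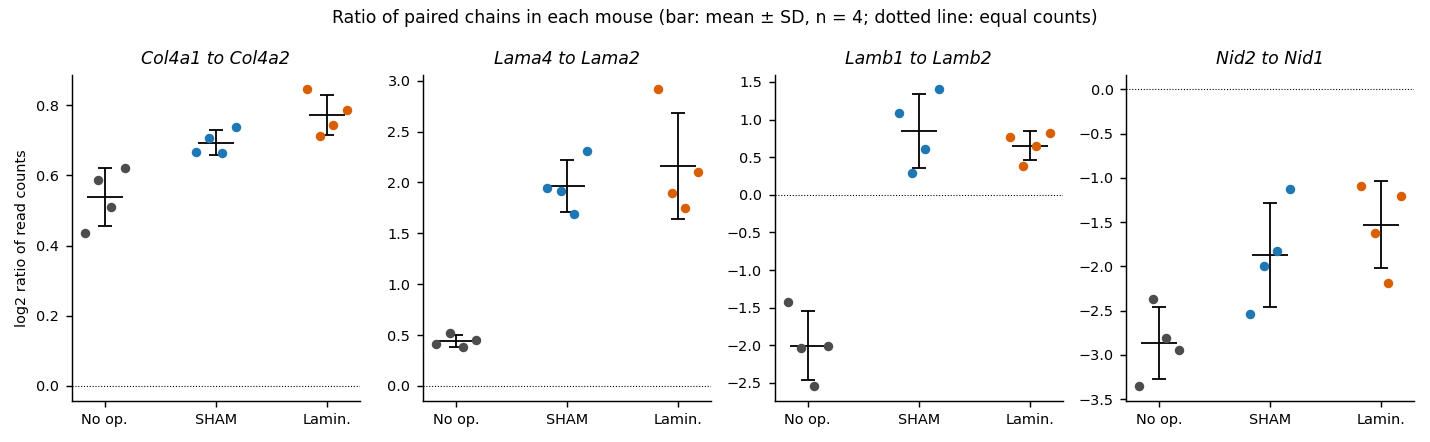
Log2 ratio of read counts (vertical axes) for 4 chain pairs in each mouse by group; points are mice, bars mean ± SD (n = 4), and the dotted line marks equal counts. For Lamb1 to Lamb2, No operation mice averaged -2.00 and SHAM mice 0.85.

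The alpha chains set the receptor that a laminin binds. Lama2 (GRCm38 chr10:26980036-27619758, minus strand), the alpha chain of the muscle fibre sheath, had 156, 99.1, 139.9 and 113 CPM in No operation mice. SHAM mice had 66.9, 52.5, 83.9 and 52.7 CPM, and Laminectomy mice had 24.4, 57.0, 67.8 and 49.0 CPM. The surgical groups lay wholly below the No operation mice. The log2 fold change was -0.99 (SE 0.278, adjusted p = 0.00899 by edgeR) in SHAM and -1.36 (SE 0.28, adjusted p = 0.00154) in Laminectomy mice. The lowest value came from Laminectomy replicate 1, with the lowest muscle fibre sum of its group, 3153 CPM, while SHAM replicate 1, with the lowest muscle fibre sum of all, 2403 CPM, had the second highest Lama2 of its group. An antisense gene, Gm48084, covers 631 of the 16338 exon bases of Lama2, and the study's methods name default counting settings, which do not use strand and give whole counts. Because 10.2% of the deposited values are not whole, the settings behind the table are uncertain, and so is the share of antisense reads in Lama2. The patterns most like that of Lama2 were those of Tshz2, Cped1, Tmem100, Il17rd and Abca9, with root mean square differences of 0.22 to 0.25 over 12 mice.

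Lama4 (GRCm38 chr10:38965515-39110188, plus strand), an alpha chain of vessels and fat, had 207, 142, 182 and 155 CPM in No operation mice. The values were 258, 199, 270.3 and 262 CPM in the SHAM group and 184, 212, 228 and 209.9 CPM after laminectomy. No operation replicate 1 lay above the lowest SHAM mouse and above the lowest Laminectomy mouse. Lama4 was called higher in SHAM mice at a log2 fold change of 0.53 (adjusted p = 0.00668 by edgeR), just past the fold threshold. Leaving out No operation replicate 2 or 4, or SHAM replicate 3 or 4, took it to 0.45, 0.48, 0.48 and 0.499, below the threshold. The Laminectomy value was 0.28 (adjusted p = 0.104, not called).

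Lama5 (GRCm38 chr2:180176373-180225859, minus strand), an alpha chain of mature endothelium and epithelium, had 93.2, 88.3, 86.5 and 119 CPM in No operation mice. SHAM mice had 44.1, 69.8, 78.9 and 64.6 CPM, and Laminectomy mice had 49.1, 66.0, 52.2 and 76.9 CPM. All operated mice were lower than all No operation mice. The log2 fold change was -0.59 (adjusted p = 0.0198 by edgeR) in SHAM and -0.66 (adjusted p = 0.0112) in Laminectomy mice. The SHAM call was also lost without No operation replicate 4 (log2 fold change -0.48, adjusted p = 0.0653).

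Relative to Lama2, Lama4 gained reads. The Lama4 to Lama2 ratio was 1.33, 1.44, 1.30 and 1.37 in No operation mice, 3.86, 3.78, 3.22 and 4.96 in SHAM mice, and 7.54, 3.72, 3.35 and 4.28 in Laminectomy mice. The log2 difference was 1.52 in SHAM and 1.72 in Laminectomy mice (two-sided exact permutation p = 0.0286 for each, 0.049 adjusted). Leaving out each mouse in turn kept these differences between 1.41 and 1.86. The exact permutation p was again 0.0286, the smallest that 4 against 3 mice allow, with the adjusted value at 0.0571 without the same mice as for Lamb1 to Lamb2. Among these alpha chains, Lama4 made up 46.5% ± 2.93 (SD, n = 4) of reads per exon length in No operation, 68.1% ± 4.44 in SHAM and 67.6% ± 3.71 in Laminectomy tissue. Lama2 made up 25.3% ± 2.36, 13.0% ± 1.90 and 11.5% ± 3.39, and Lama5 28.1% ± 5.18, 18.9% ± 4.39 and 20.9% ± 3.41.

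**Figure D3:**
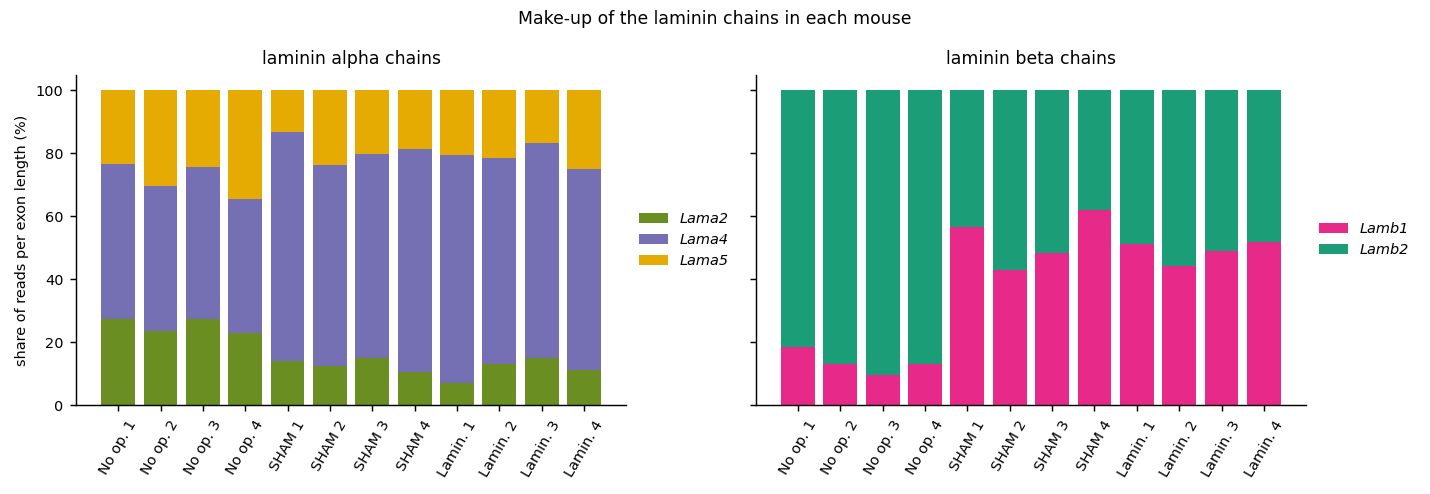
Share of reads per exon length, in percent (vertical axis), of each laminin alpha chain (left) and beta chain (right) in each of 12 mice, stacked to the full set. The Lamb1 share averaged 13.6% in No operation mice and 52.4% in SHAM mice.

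Lamc1 (GRCm38 chr1:153218922-153332786, minus strand) encodes the gamma chain that pairs with all the chains above. It had 492, 298, 386 and 338 CPM in No operation mice. The values were 432, 336, 466 and 418 CPM in the SHAM group and 305, 352, 347 and 346 CPM after laminectomy. The groups overlapped throughout. The SHAM difference was 0.13 on the log2 scale (95% interval -0.22 to 0.47, adjusted p = 0.503 by edgeR) and the Laminectomy difference -0.16 (interval -0.51 to 0.18, adjusted p = 0.39).

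Nid1 (GRCm38 chr13:13437551-13512269, plus strand) encodes nidogen, which binds the gamma chain of laminin and collagen IV. It had 505, 360.0, 390.0 and 377 CPM in No operation mice. SHAM mice had 852, 583, 668 and 639 CPM, and Laminectomy mice had 395, 486, 556 and 503 CPM. Every SHAM mouse was above every No operation and every Laminectomy mouse, and the last 2 groups overlapped. Nid1 rose in SHAM mice by a log2 fold change of 0.75 (SE 0.162, adjusted p = 0.00195 by edgeR), and in Laminectomy mice the value was 0.25 (adjusted p = 0.204, not called). Its deposited counts were not all whole numbers, the only case among the 10 genes.

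Hspg2 (GRCm38 chr4:137468769-137570630, plus strand) encodes perlecan, the heparan sulphate proteoglycan of the sheet. It had 885, 704, 840.0 and 761 CPM in No operation mice. The values were 936, 859, 1222 and 1117 CPM in the SHAM group and 1006, 1117, 874 and 848 CPM after laminectomy. The groups overlapped. In SHAM mice the log2 fold change was 0.37 with an adjusted p of 0.049 by edgeR, under the fold threshold, and in Laminectomy mice it was 0.27 (adjusted p = 0.144).

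**Figure D4:**
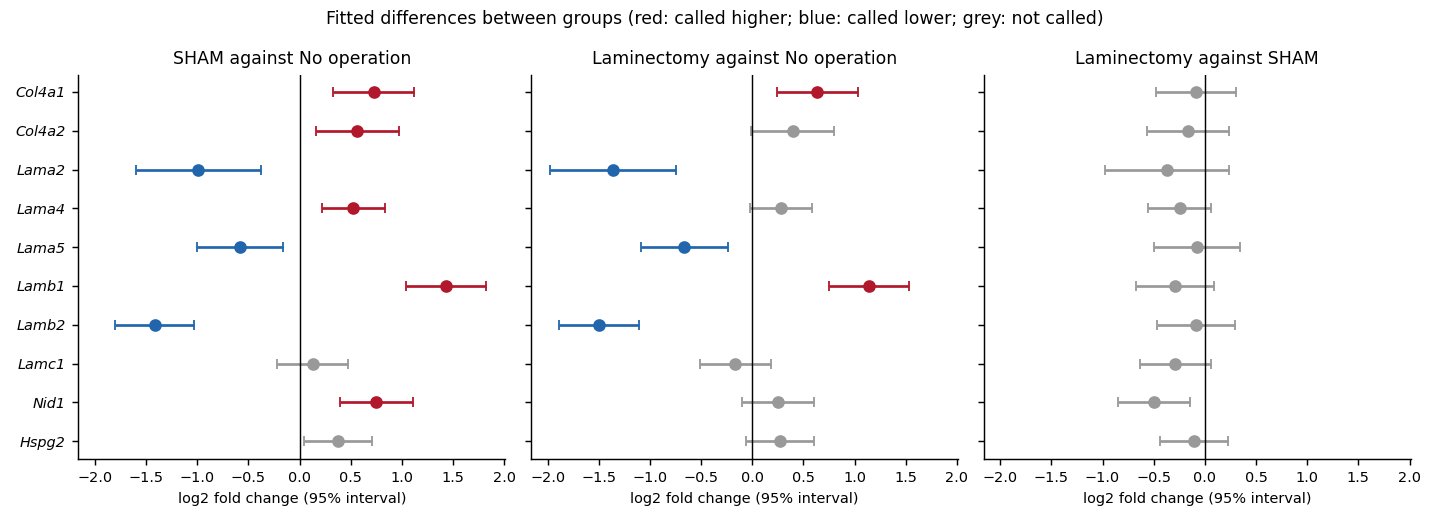
Fitted log2 fold change (horizontal axis, point) with its 95% interval (bar) for the 10 genes in 3 comparisons, coloured by call. Lamb1 at 1.43 and Lamb2 at -1.42 lie farthest from 0 in the SHAM comparison, and in the Laminectomy against SHAM panel Nid1 is the one gene whose interval lies wholly below 0.

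Between Laminectomy and SHAM mice none of the 10 genes was called, nor was any of the 14765 genes (0%) by edgeR. At an unadjusted p under 0.05 there were 2359 genes, 1 of them among the 10, and DESeq2 called 696 genes, none of the 10. All 10 log2 fold changes were below 0, as were 7288 of the 14765 genes tested, with a median of -0.21 beside 0.00 over all genes. Nid1 had the largest difference, -0.50 (95% interval -0.85 to -0.15, unadjusted p = 0.00982, adjusted p = 0.178 by edgeR), and was the only one of the 10 whose groups did not overlap, against 10.1% of all genes. The intervals were -0.48 to 0.31 for Col4a1, -0.67 to 0.09 for Lamb1, -0.47 to 0.30 for Lamb2 and -0.97 to 0.23 for Lama2. Leaving out SHAM replicate 3 turned Col4a1, Lama5 and Lamb2 to 0.034, 0.035 and 0.043. None of the 4 chain ratios differed between the surgical groups at an adjusted permutation p under 0.05, and the smallest p was 0.0571 for Col4a1 to Col4a2.

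Levels of different genes were compared per length of exon, merged over all annotated transcripts, and the ranks depend on that length. In CPM per kilobase Col4a1 was the highest of the 10 in every group, at 95.6 ± 14.3 (SD, n = 4) in No operation, 158 ± 34.8 in SHAM and 149 ± 16.8 in Laminectomy mice. Lamb2 was second in No operation tissue at 80.1 ± 14.7, seventh in SHAM at 30.0 ± 6.01 and sixth in Laminectomy tissue at 28.3 ± 4.35. In No operation tissue Lamb2 and Col4a2, at 74.6 ± 14.2, differed by less than their SD. In SHAM and Laminectomy tissue Lamb1, at 33.2 ± 6.63 and 27.1 ± 1.13, differed from Lamb2 by less than the SD of Lamb2. Lama2 had the lowest mean in each group, from 7.77 ± 1.56 to 3.92 ± 0.912 and 3.03 ± 1.13. Its merged exon length was 16338 bases, and that of Lama5 was 11388. Without division by length, Lama2 averaged 127, 64.0 and 49.5 CPM and Lama5 averaged 96.6, 64.4 and 61.0 CPM. In No operation tissue Lama2 and Lama5, at 8.49 ± 1.31, differed by less than their SD.

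The remaining chains of these families were mostly low. Of 9 tested, 1 was called higher and 2 lower in each surgical group, where 25.7% of all genes were higher and 25.1% lower in SHAM mice and 24.2% and 24.4% in Laminectomy mice. The median log2 fold change was -0.18 in SHAM and -0.23 in Laminectomy mice. Nid2, the other nidogen (GRCm38 chr14:19751265-19811787), had 49.4, 69.5, 55.6 and 49.0 CPM in No operation mice. SHAM mice had 147, 146, 188 and 293 CPM, and Laminectomy mice had 185, 158, 122 and 218 CPM, with no overlap. Nid2 rose by 1.79 (adjusted p = 9.85e-05 by edgeR) and 1.61 (adjusted p = 0.000232) on the log2 scale. Rtraf overlaps 437 of its 5174 exon bases on the opposite strand. The Nid2 to Nid1 ratio rose in Laminectomy mice by 1.34 on the log2 scale (two-sided exact permutation p = 0.0286, 0.049 adjusted), and in SHAM mice the difference was 1.00 (exact permutation p = 0.0571, adjusted 0.0762). The Laminectomy call was lost without any 1 of the No operation mice (adjusted permutation p 0.0762 to 0.0857), and without SHAM replicate 1 the SHAM difference of 1.22 had an adjusted p of 0.049. Col4a4, a chain of specialised membranes such as that of the kidney filter, fell from a mean of 10.9 CPM to 2.20 and 1.33 CPM.

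Around these genes, 10 of 13 collagen IV assembly and crosslinking genes were called higher and 1 lower in each surgical group, beside 25.7% of all genes called higher in SHAM and 24.2% in Laminectomy mice, with median log2 fold changes of 1.20 in SHAM and 1.06 in Laminectomy mice. Loxl2, a lysyl oxidase that crosslinks collagen IV, rose by 2.21 and 2.00. P3h1, a prolyl hydroxylase, rose by 1.51 and 1.65, and Serpinh1, the collagen chaperone, rose by 1.48 and 1.61. Plod2, a lysyl hydroxylase, rose by 1.34 and 1.79. P3h2, the prolyl hydroxylase that acts on collagen IV, was the gene called lower, at -1.41 and -1.14. The fibroblast sums given above rose in both surgical groups, and their part in the rises of this list was not tested. Which collagens these enzymes served was not measured.

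Of 9 proteases tested, 7 were called higher in SHAM and 8 in Laminectomy mice, and none lower, beside 25.7% and 24.2% of all genes called higher, with medians of 1.99 and 1.51. Ctss, a cathepsin of macrophages, rose by 3.25 and 2.92. Mmp14, a membrane-bound metalloprotease, rose by 2.74 and 2.80. Mmp3, a stromelysin, rose by 3.00 and 1.61, and its Laminectomy call was lost without No operation replicate 2, 3 or 4 or Laminectomy replicate 4 (adjusted p 0.063 to 0.0818 by edgeR). Mmp9, a type IV collagenase also carried by neutrophils, differed by 1.33 in SHAM mice (adjusted p = 0.229, not called) and by 2.65 in Laminectomy mice (adjusted p = 0.0329). The Laminectomy call for Mmp9 was lost with a replicate block (adjusted p = 0.05003), with only these groups in the fit (adjusted p = 0.0674), and without No operation replicate 1 or 3 or Laminectomy replicate 1 (adjusted p 0.0616 to 0.0791). Without No operation replicate 2 the Mmp9 difference was 4.13. The macrophage sums given above moved in the same direction, and their part was not tested.

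Of 15 receptor genes, 1 was called higher and 9 lower in each surgical group, beside 25.7% and 25.1% of all genes in SHAM mice and 24.2% and 24.4% in Laminectomy mice, with medians of -0.87 and -0.84. Sgca, Dmd and Sgcd, parts of the dystrophin complex that ties the laminin sheath to the muscle fibre, fell by 2.97, 2.28 and 2.10 on the log2 scale in SHAM mice and by 2.55, 2.12 and 1.87 in Laminectomy mice. Itgb1, the common beta integrin, was the gene called higher, at 0.51 and 0.57. Its SHAM call was lost with only these groups in the fit (adjusted p = 0.0578 by edgeR) and without No operation replicate 2 or 4 or SHAM replicate 1, 3 or 4 (adjusted p 0.053 to 0.0748). Its Laminectomy call was lost without No operation replicate 2 or 4 (log2 fold change 0.49 and 0.496). These falls moved with the muscle fibre sums given above, and the part of those sums in them was not tested.

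Of 17 other basement membrane proteins, 4 were called higher and 7 lower in SHAM mice and 3 higher and 4 lower in Laminectomy mice, beside 25.7% and 25.1%, and 24.2% and 24.4%, of all genes, with medians of -0.12 and -0.04. Col18a1, the source of endostatin, rose by 2.31 and 2.30. Sparc, a collagen-binding matricellular protein, rose by 1.26 and 1.11, and Npnt, an integrin ligand, by 1.70 and 2.48. SHAM replicate 1, at 4.61 CPM of Npnt, lay below every No operation mouse, at 9.25 to 14.1 CPM, and the other SHAM mice were at 38.4 to 58.5 CPM. Egflam, or pikachurin, a dystroglycan ligand, fell by 2.20 and 2.58. Tinagl1 fell by 0.96 and 1.18 and Ntn4, a netrin that binds laminin, by 0.86 and 1.24. Frem2 fell by 1.41 in SHAM mice and was at -0.53 in Laminectomy mice (adjusted p = 0.247 by edgeR), and Fbln1 was at -0.12 in SHAM mice (adjusted p = 0.775) and fell by 1.25 in Laminectomy mice.

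**Figure D5:**
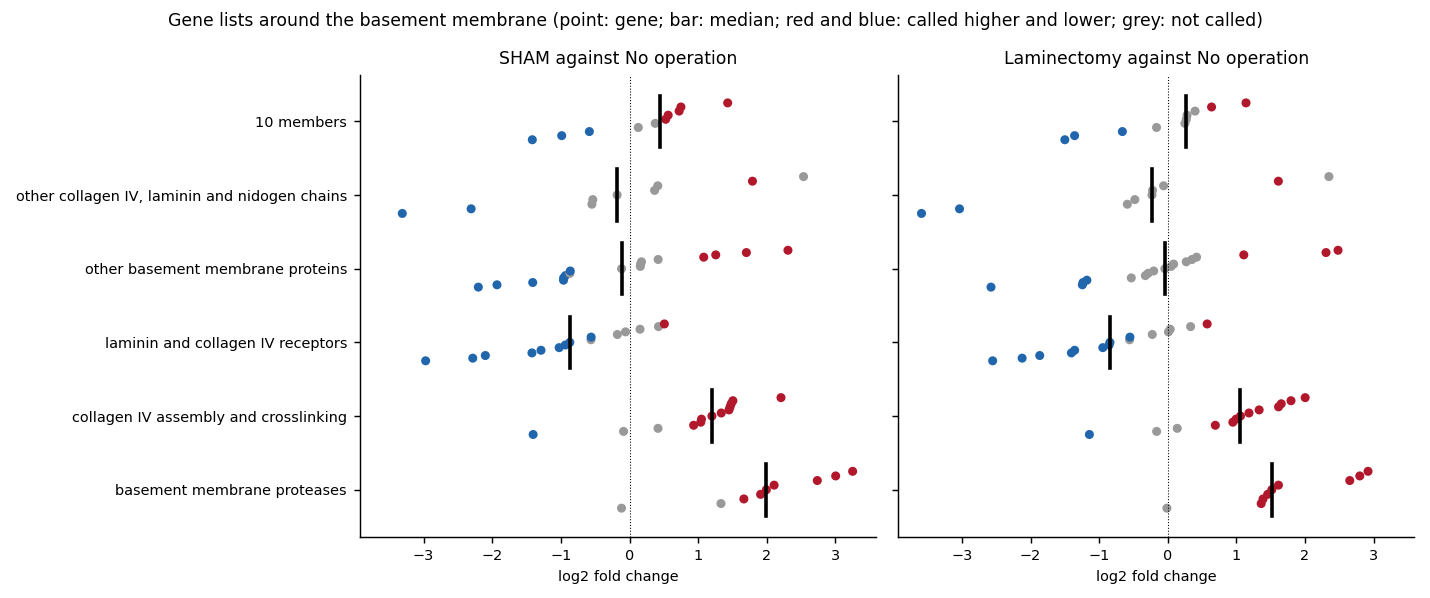
Log2 fold change (horizontal axes) of each tested gene (point) in the 10 genes and 5 related lists, for both comparisons with No operation mice, with a bar for the median. The assembly list has its median at 1.20 in SHAM mice and the receptor list at -0.87.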

How the data were processed

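Total polyA RNA from the 12 mice was made into stranded libraries and sequenced in read pairs. Per the submitters' processing notes, STAR 2.6.1b aligned reads to GRCm38 and featureCounts 2.0.1 counted them. The study's methods name default counting settings, which do not use strand and give whole counts, so the fractional values leave the settings uncertain. The authors deposited estimated counts per gene, neither normalised nor all whole (10.2% of values were not), and these were rounded, by at most 0.5. Totals ran from 16802989 to 18077868 per mouse. The design text says that 3 replicates per group were selected for the study's tests without naming them, so all 4 were used. Samples were grouped by their library names. Separate animals are implied by the labels' biological replicates.

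Genes were filtered with filterByExpr (14765 of 18996 kept), scaled by TMM, and tested in 1 fit of 3 groups with edgeR 4.0.16 in R 4.3.3, after it had been tested on simulated data. CPM used TMM-scaled totals. Ratios of chains were tested by two-sided exact permutation. The 10 genes and all lists were chosen with earlier results of these data known. Besides the 10, the text names from each list up to 3 genes per direction with the largest fold among those called, at 10 CPM or more and without overlap, genes of each ratio, and the 5 patterns nearest to Col4a1 and Lama2. Aqp4 and Snap25 are named outside this rule, as cell type markers. Pattern likeness is the root mean square difference of centred log2 CPM. Exon positions and lengths came from the GENCODE annotation of GRCm38, with the exons of all transcripts of a gene merged. Promoter windows came from RefSeq on GRCm38. Alternatives were DESeq2 1.42.0, other scalings, filters, thresholds and samples, a replicate block, unrounded counts, and each mouse left out.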

Additional observations from a re-analysis of the deposited data

Results flagged for a closer look

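Among 42 groups of 4 mice examined over the 10 genes and the 4 chain ratios, 4 held a mouse far from the other 3 by Dixon's test, and chance flags about 1 in 20 groups. Lama4 was low in SHAM replicate 2, at 199 CPM. Lamb1 was high in No operation replicate 1, at 164 CPM. Lamb2 was high in No operation replicate 3, at 620.4 CPM. Lamc1 was low in Laminectomy replicate 1, at 305 CPM. The causes were not tested.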

How the results depend on the processing

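With library totals in place of TMM, the median of all genes shifted to 0.25 in SHAM and 0.33 in Laminectomy mice, and the share of calls that were higher went from 50.6% to 66.0% and from 49.8% to 69.9%. Then 6 of the 10 genes were called higher in Laminectomy mice, Lama5 was not called in either comparison (-0.32 and -0.33), and Lamc1 turned to 0.16 in Laminectomy mice. A fold threshold of 1 left 4589 and 4323 genes called, with 1 of the 10 higher and 1 lower in SHAM mice and 1 higher and 2 lower in Laminectomy mice. DESeq2 called 696 genes between Laminectomy and SHAM mice, where edgeR called 0.

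Leaving out each mouse in turn gave 3 to 5 of the 10 genes called higher in SHAM mice. Between Laminectomy and SHAM mice it gave -0.21 to 0.034 for Col4a1, -0.21 to 0.035 for Lama5 (0.013 without Laminectomy replicate 1), -0.19 to 0.043 for Lamb2, -0.32 to 0.090 for Nid2 (the last without SHAM replicate 4) and -0.053 to 0.34 for Lama4 to Lama2 (the first without Laminectomy replicate 1). The log2 ratio differences ran from 0.12 to 0.18 in SHAM and 0.20 to 0.26 in Laminectomy mice for Col4a1 to Col4a2, from 1.41 to 1.62 and 1.47 to 1.86 for Lama4 to Lama2, from 2.67 to 3.04 and 2.48 to 2.85 for Lamb1 to Lamb2, and from 0.75 to 1.22 and 1.18 to 1.56 for Nid2 to Nid1. In part of these repeats the adjusted permutation p of called ratios rose to between 0.0571 and 0.098. The unadjusted p of Lama4 to Lama2 and Lamb1 to Lamb2 was 0.0286, the smallest that 4 against 3 mice allow. The adjusted permutation p of Nid2 to Nid1 in SHAM mice fell under 0.05 without SHAM replicate 1.

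The correlations of same-numbered mice ran from -0.23 to 0.35. Those of replicates 1 and 3 were all above 0, and those of replicates 2 and 4 took both signs. Mice of different numbers were not correlated, so whether the numbers pair the mice was not tested. The fit with a replicate block called 7442, 7153 and 0 genes, and the same 5 higher and 3 lower and 2 higher and 3 lower of the 10. The block ended the Laminectomy call for Mmp9. For the ratios, sign flips over 4 pairs allow no p under 0.125, so the paired differences of 0.15, 1.52 and 2.85 in SHAM and 0.23, 1.72, 2.66 and 1.34 in Laminectomy mice could not pass.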
